A study of Homo sapiens with 27 samples.

Results

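The RAB proteins are small GTPases that sit on the membranes of the secretory and endocytic pathways. Their messages were followed in U937 cells, an established human monocyte-like line that grows in suspension. Genes were taken by symbol from the array's probe annotation: every symbol starting with RAB and a digit, leaving out the RAB3GAP, RAB3IP, RAB3IL and RAB11FIP genes, which encode partners of RABs. The rule gave 56 genes of the 15207 named genes on the array, each read from its brightest probe. Of the 56, 55 still carry a RAB name. The remaining one, listed as RAB6IP1, is DENND5A today, which encodes an exchange factor and not a GTPase. RAB1C is annotated as a pseudogene, and RAB6C is a retrogene close in sequence to RAB6A, so their probes may also read the genes they resemble. RAB39 is an older symbol that RefSeq lists as a synonym of RAB39A and of RAB34. RAB34 has a probe of its own on this array.

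The study had 3 groups. One was left untreated, one received 4 µg/ml LPS (lipopolysaccharide from the wall of Gram-negative bacteria, sensed by Toll-like receptor 4, TLR4), and one received 10 µM PBD150 for 2 h and then 4 µg/ml LPS. PBD150 inhibits glutaminyl cyclase, the enzyme activity named in the series title, which forms pyroglutamate at the N-terminus of some chemokines. All cultures ran for 48 h. The labels speak of macrophages but name no agent that would have differentiated the line. No group received PBD150 alone. Each group had 3 biological replicates (n = 3 throughout), each hybridised to 3 one-colour arrays. Nothing in the labels says whether the biological replicates were independent cultures, so the p-values measure the spread between these samples.

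A RAB works as a switch. An exchange factor loads it with GTP, which holds it on a membrane where it recruits effectors such as motors and tethers, and a GTPase-activating protein turns it off. A prenyl group added by a dedicated transferase anchors it, and a dissociation inhibitor extracts it for reuse. In monocytes and macrophages RABs direct the maturation of phagosomes, the traffic of TLR4 to and from the surface, and the release of cytokines and granule contents.

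Levels are log2 intensities after quantile normalisation, and a difference of 1 is a 2-fold change. A gene counted as above noise on an array where it exceeded 3 times the root mean square of that array's values below 0. On that measure 38 of the 56 genes were above noise on all 27 arrays and 45 were above it on all arrays of at least 1 group. RAB40A, RAB17 and RAB12 were above it on none. Array log2 medians before normalisation ran from 5.37 to 6.23 in untreated cells, from 6.09 to 6.65 after LPS, and from 6.02 to 6.52 after the inhibitor and LPS. Untreated replicate 1 stood apart, with medians of 5.37 to 5.55 against 6.12 to 6.23 in the other untreated cultures. The summed linear level of 7 measured macrophage differentiation markers was 2265 to 2402 in untreated cultures, 110683 to 128444 after LPS, and 126294 to 144685 after the inhibitor and LPS, and 6 of the 7 passed the test as higher with LPS. The sum of 10 monocyte-lineage markers was 75048 to 75224, 59028 to 64020 and 56437 to 59045. That sum fell while 4 of the 10 markers passed as higher with LPS and 1, ELANE, as lower, and their median difference was 0.48. Markers of other cells were not at 0, and 1 of 5 T lymphocyte, 1 of 4 B lymphocyte, 2 of 5 epithelial or fibroblast and 0 of 4 melanocyte markers passed as higher with LPS, while 1 B lymphocyte marker was lower. The sum was 2503 to 2953, 2692 to 5377 and 2431 to 3936 for 5 T lymphocyte markers, and 1086 to 1152, 557 to 786 and 530 to 644 for 4 B lymphocyte markers. It was 413 to 492, 572 to 887 and 759 to 904 for 5 epithelial or fibroblast markers. For 4 melanocyte markers, a lineage that shares RAB27A, RAB32 and RAB38, it was 291 to 356, 373 to 465 and 339 to 509. Fewer cells of a type and less RNA per cell cannot be told apart in these bulk samples, and the part of these marker shifts in the RAB results was not tested.

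Promoter sequence is shown for RAB24, RAB31 and RAB32, members that passed the test with LPS and that hold a match to a searched motif. RefSeq (GRCh38.p14) gave a promoter for 42 of the 56 genes. Each sequence is the 250 bases before the annotated start, 5′ to 3′ on the gene's strand, with motif matches in capitals. The RAB24 window is chr5:177303720-177303969 on the minus strand, the RAB31 window chr18:9708051-9708300 on the plus strand and the RAB32 window chr6:146543583-146543832 on the plus strand.
RAB24: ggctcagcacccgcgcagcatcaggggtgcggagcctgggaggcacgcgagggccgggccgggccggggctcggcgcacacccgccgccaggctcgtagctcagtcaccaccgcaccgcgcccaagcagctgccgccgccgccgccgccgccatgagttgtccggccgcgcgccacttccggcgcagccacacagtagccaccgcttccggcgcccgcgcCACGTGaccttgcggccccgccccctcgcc
RAB31: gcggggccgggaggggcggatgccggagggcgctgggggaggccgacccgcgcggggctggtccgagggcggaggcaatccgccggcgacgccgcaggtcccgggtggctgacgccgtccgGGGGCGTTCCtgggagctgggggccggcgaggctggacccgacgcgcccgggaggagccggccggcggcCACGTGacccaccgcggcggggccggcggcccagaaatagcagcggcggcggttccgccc
RAB32: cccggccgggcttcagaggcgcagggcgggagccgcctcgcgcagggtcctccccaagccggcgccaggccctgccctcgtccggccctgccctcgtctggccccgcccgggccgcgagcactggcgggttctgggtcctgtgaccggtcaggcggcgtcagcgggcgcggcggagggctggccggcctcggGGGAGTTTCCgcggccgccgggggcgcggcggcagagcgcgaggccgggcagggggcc
The capitals mark the E-box CACGTG in RAB24, the NF-kB consensus and then the E-box in RAB31, and the NF-kB consensus in RAB32. RAB24 and RAB31 rose with LPS and RAB32 fell. An NF-kB match stood in 1 of 7 promoters of RAB genes higher with LPS and in 1 of 2 of lower ones. The effect of the motifs on these genes was not tested. Both strands were searched. Over all 27305 RefSeq promoters of the same length 9.57% held the NF-kB consensus, against 4 of the 42 RAB promoters (9.52%). The E-box stood in 6.49% of all promoters and in 4 of the 42 (9.52%). The AP-1 motif TGACTCA was in 4.16% of all promoters and 2 of the 42 (4.76%), and 1 of those 2 was RAB5B. RAB5B also rose with LPS, and its sequence is not shown. The PU.1 motif GAGGAAGT (2.13% of all) and the cAMP response motif TGACGTCA (1.77%) each matched 1 of the 42. These matches are letters in a window and not binding sites.

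LPS against untreated cells showed which RAB messages differ after 48 h of stimulation. RAB genes moved in both directions, 8 higher and 4 lower, while 44 did not pass (limma, Benjamini-Hochberg adjusted p under 0.05 over 30968 probes). The largest rise was in RAB13 at 7.44-fold. Among the falls, RAB32 was at -1.77 on the log2 scale, and RAB39 was at -1.86 but above noise on 1 of 9 LPS arrays, so its size is uncertain. By the same test 13.6% of all named genes were higher and 15.4% lower, 29.0% in either direction, as were 22.5% of all probes. The RAB shares were 14.3% higher and 7.14% lower. On values as deposited, with no scaling between arrays, the RAB split was 12 higher and 2 lower, when 3312 of all named genes were higher and 1435 lower. With median centring in place of quantile normalisation it was 8 and 4, when 1469 of all named genes were higher and 2373 lower. Replicates did not overlap for 24 of the 56 genes, 15 above and 9 below, which is 42.9% against 50.5% of all named genes. The median RAB difference was 0.06, against 0.05 for all named genes, and it changed sign with the scaling: it was 0.42 on values as deposited and -0.06 with median centring, when the median of all named genes was 0.38 and -0.10.

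**Figure D1:**
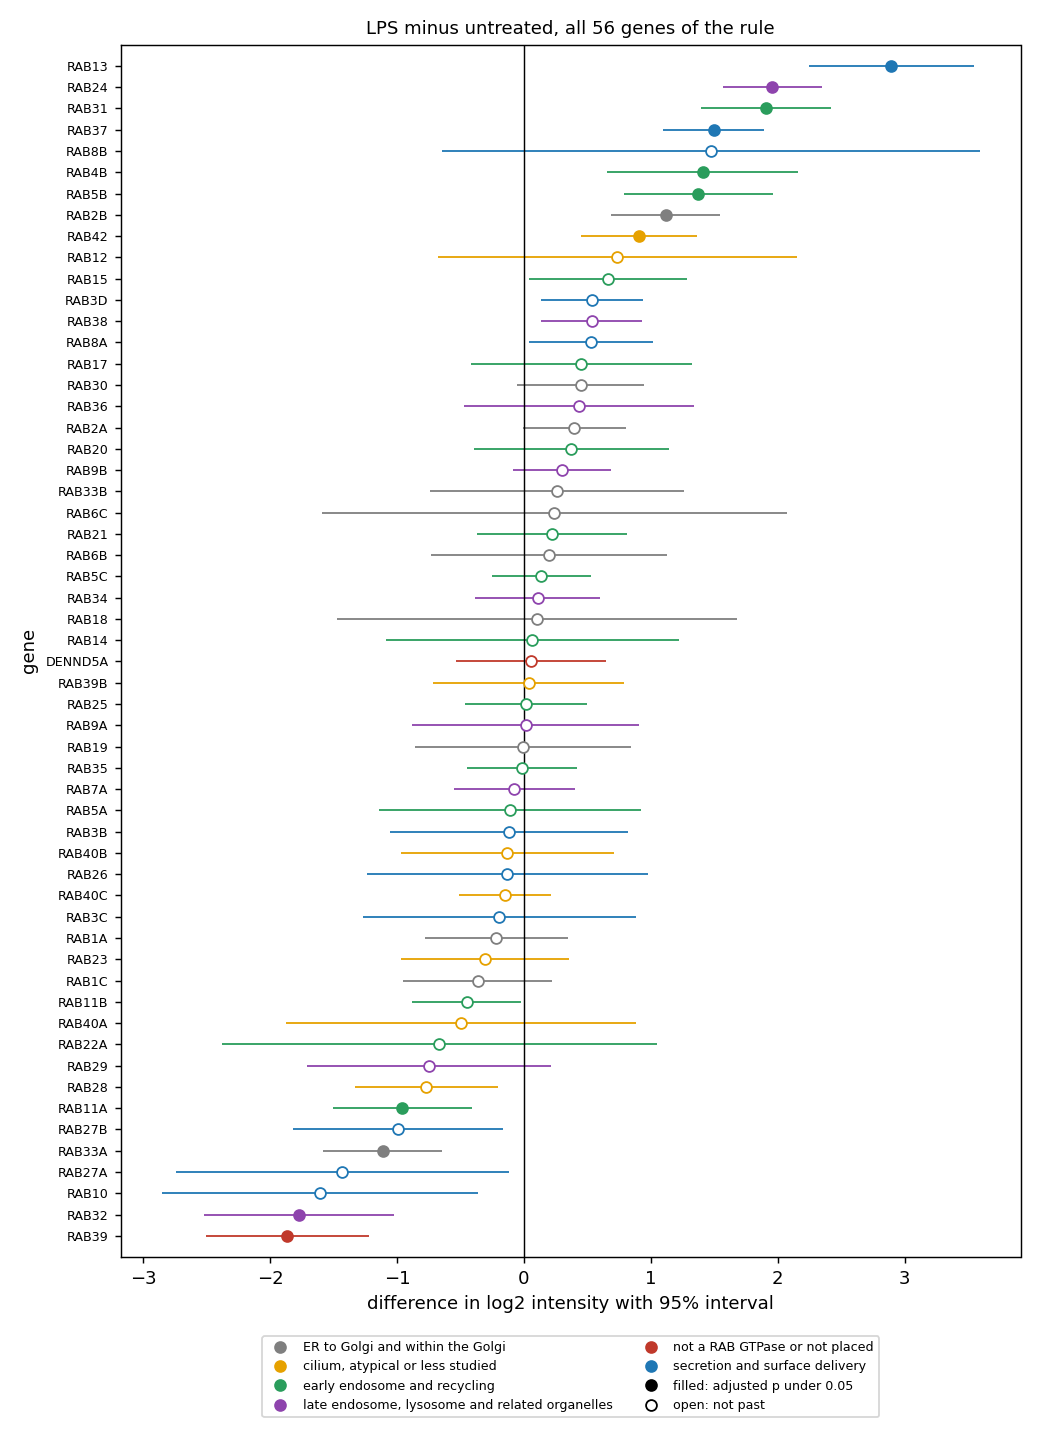
Difference in log2 intensity between LPS and untreated cells for each of the 56 genes (points) with its 95% interval (lines), sorted by size and coloured by role. Filled points passed an adjusted p of 0.05: 8 genes on the right of 0 and 4 on the left.

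Among 11 genes of secretion and surface delivery 2 rose and none fell, with a median difference of -0.12. That is 18.2% higher and 0% lower, against 13.6% and 15.4% of all named genes. RAB13, which directs vesicles to cell junctions and the surface, read 10.24, 10.44 and 10.26 in untreated cells, 13.77, 13.05 and 12.82 with LPS, and 12.73, 12.94 and 13.39 with PBD150 plus LPS. All 6 treated cultures lay above all 3 untreated ones, and the LPS difference was 2.90 ± 0.28 (SE, adjusted p = 0.000236). RAB37, a RAB of secretory granules, read 12.60, 12.41 and 12.44, then 13.97, 14.09 and 13.87, then 14.19, 14.19 and 13.91 in the same order of groups. The groups with and without LPS did not overlap, the difference was 1.49 ± 0.17 (adjusted p = 0.000519), and a second RAB37 probe gave 1.44. RAB27A, which docks secretory granules and exosome-bearing bodies, did not pass: it read 7.19, 7.33 and 7.21 in untreated cells and 6.76, 5.64 and 5.03 with LPS, and the difference of -1.43 ± 0.58 had an adjusted p of 0.115. RAB10, which carries cargo including TLR4 to the surface, gave -1.61 ± 0.55 (adjusted p = 0.069). RAB8B, a RAB of transport from the Golgi to the plasma membrane, had a difference of 1.47 but a standard error of 0.93 (adjusted p = 0.307), and it was above noise on 5 of 9 untreated arrays. Its close relative RAB8A gave 0.53, and the granule RAB RAB3D gave 0.54, neither past the threshold. Over 18 alternative settings RAB27A passed in 4, RAB10 in 6, RAB8A in 1 and RAB3D in 6, in the same direction. Of these 18, the 1 that leaves out DENND5A reuses the main fit and could not change the call of any single gene.

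Among 15 genes of early endosomes and recycling 3 rose and 1 fell, with a median of 0.14. Of all named genes 13.6% were higher and 15.4% lower, against 20% and 6.67% here. RAB31, which links the trans-Golgi network to endosomes, read 9.13, 9.13 and 9.17 in untreated cells, 11.24, 10.80 and 11.11 with LPS, and 10.96, 10.72 and 11.43 with PBD150 plus LPS. No treated culture came near an untreated one, and the LPS difference was 1.91 ± 0.23 (adjusted p = 0.000575). RAB5B, one of the RAB5 isoforms that drive early endosome fusion, read 11.53, 11.56 and 11.51, then 13.39, 12.66 and 12.68, then 12.49, 13.00 and 13.10. Untreated values sat within a narrow band below all treated ones, and the difference was 1.38 ± 0.26 (adjusted p = 0.00558). The other isoforms did not pass: RAB5A gave -0.11 and RAB5C gave 0.14. RAB4B, a RAB of rapid recycling to the surface, read 8.09, 8.08 and 7.89, then 9.03, 10.16 and 9.10, then 9.84, 10.00 and 9.32. Its LPS replicate 2 was higher than the other LPS cultures, all of which exceeded the untreated ones, and the difference was 1.41 ± 0.33 (adjusted p = 0.0159). Without untreated replicate 3 the RAB4B difference was 1.35 and its adjusted p 0.0568.

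RAB11A, the RAB of the recycling endosome, was the member of this group that fell. It read 10.58, 10.47 and 10.55 in untreated cells, 9.71, 9.67 and 9.35 with LPS, and 9.07, 9.49 and 9.92 with PBD150 plus LPS. Every treated culture was below every untreated one, with a difference of -0.96 ± 0.24 (adjusted p = 0.0216). The call was lost on values as deposited (-0.65, adjusted p = 0.127). It was also lost without untreated replicate 1, 2 or 3 or LPS replicate 3, with adjusted p of 0.0697, 0.0626, 0.0673 and 0.0742. Its paralogue RAB11B gave -0.45 and did not pass (adjusted p = 0.129). RAB20, which acts in phagosome maturation, gave 0.37 and did not pass.

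Among 9 genes of late endosomes, lysosomes and lysosome-related organelles 1 rose and 1 fell, with a median of 0.11. Both shares were 11.1%, against 13.6% higher and 15.4% lower of all named genes. RAB24, an atypical RAB linked to autophagy, read 8.82, 8.89 and 8.81 in untreated cells, 10.66, 10.96 and 10.77 with LPS, and 10.78, 10.55 and 10.80 with PBD150 plus LPS. Treated and untreated cultures were separated by more than the range within any group, with a difference of 1.96 ± 0.17 (3.88-fold, adjusted p = 0.00014). A second RAB24 probe gave a smaller difference of 0.69 that did not pass (adjusted p = 0.168). RAB32, which acts in the formation of lysosome-related organelles, read 12.90, 12.92 and 12.99, then 11.82, 10.78 and 10.90, then 10.35, 10.85 and 11.27. All untreated cultures were above all treated ones, LPS replicate 1 being the nearest, and the difference was -1.77 ± 0.33 (adjusted p = 0.0053). RAB38, its closest relative, gave 0.53 and did not pass (adjusted p = 0.0602), but it passed as higher in 5 of 18 alternative settings. RAB7A, which drives fusion of late endosomes and phagosomes with lysosomes, read 13.47, 13.41 and 13.45 in untreated cells and 13.08, 13.42 and 13.60 with LPS. Its groups overlapped, with a difference of -0.07.

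Among 11 genes of transport between the endoplasmic reticulum and the Golgi and within the Golgi 1 rose and 1 fell, with a median of 0.20. Each share was 9.09%, against 13.6% higher and 15.4% lower of all named genes. RAB2B, a RAB of the early secretory pathway, read 6.35, 6.63 and 6.30 in untreated cells, 7.40, 7.66 and 7.57 with LPS, and 7.59, 7.34 and 7.70 with PBD150 plus LPS. The treated cultures lay above the untreated ones without overlap, and the difference was 1.12 ± 0.19 (adjusted p = 0.00333). The RAB2A probes disagreed: the brightest gave 0.40 and did not pass (adjusted p = 0.152), while a dimmer one was lower by the test at -1.75 (adjusted p = 0.039). The dimmer probe was above noise on all 9 untreated but 5 of 9 LPS arrays, so the size of its fall is uncertain. RAB33A, a RAB of Golgi-derived vesicles, read 11.75, 11.94 and 11.94, then 11.08, 10.77 and 10.44, then 10.44, 10.50 and 10.28. All untreated cultures lay above all treated ones, with a difference of -1.11 ± 0.21 (adjusted p = 0.00526). On values as deposited the RAB33A difference was -0.77 and did not pass (adjusted p = 0.0645). Its paralogue RAB33B gave 0.26, and RAB1A, needed for transport from the endoplasmic reticulum to the Golgi, gave -0.22, neither past the threshold.

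Of 8 ciliary, atypical or less studied RABs 1 rose and none fell, with a median of -0.14. These shares of 12.5% and 0% compare with 13.6% and 15.4% of all named genes. RAB42, a little studied RAB, read 5.06, 4.92 and 5.39 in untreated cells and 6.20, 5.95 and 5.94 with LPS. The groups did not overlap, and the difference was 0.91 ± 0.20 (adjusted p = 0.0122). Without untreated replicate 2 the RAB42 difference was 0.81 and did not pass (adjusted p = 0.0605). The older symbol RAB39, not placed in a role, read 5.85, 4.90 and 5.49 in untreated cells, 3.46, 3.46 and 3.74 with LPS, and 3.76, 3.15 and 3.71 with PBD150 plus LPS. The untreated cultures were higher without overlap, and the difference was -1.86 ± 0.28 (adjusted p = 0.00201). It was above noise on all 9 untreated arrays but on 1 of 9 LPS arrays, so the size of the fall is limited by the noise of the array. DENND5A gave 0.06. Read from the brightest probe of each gene, no family of RABs sharing a number had members past the threshold in opposite directions. The dimmer RAB2A probe, above noise on 5 of 9 LPS arrays, was lower at -1.75 (adjusted p = 0.039), while RAB2B was higher at 1.12. Differences between paralogues were not tested.

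**Figure D2:**
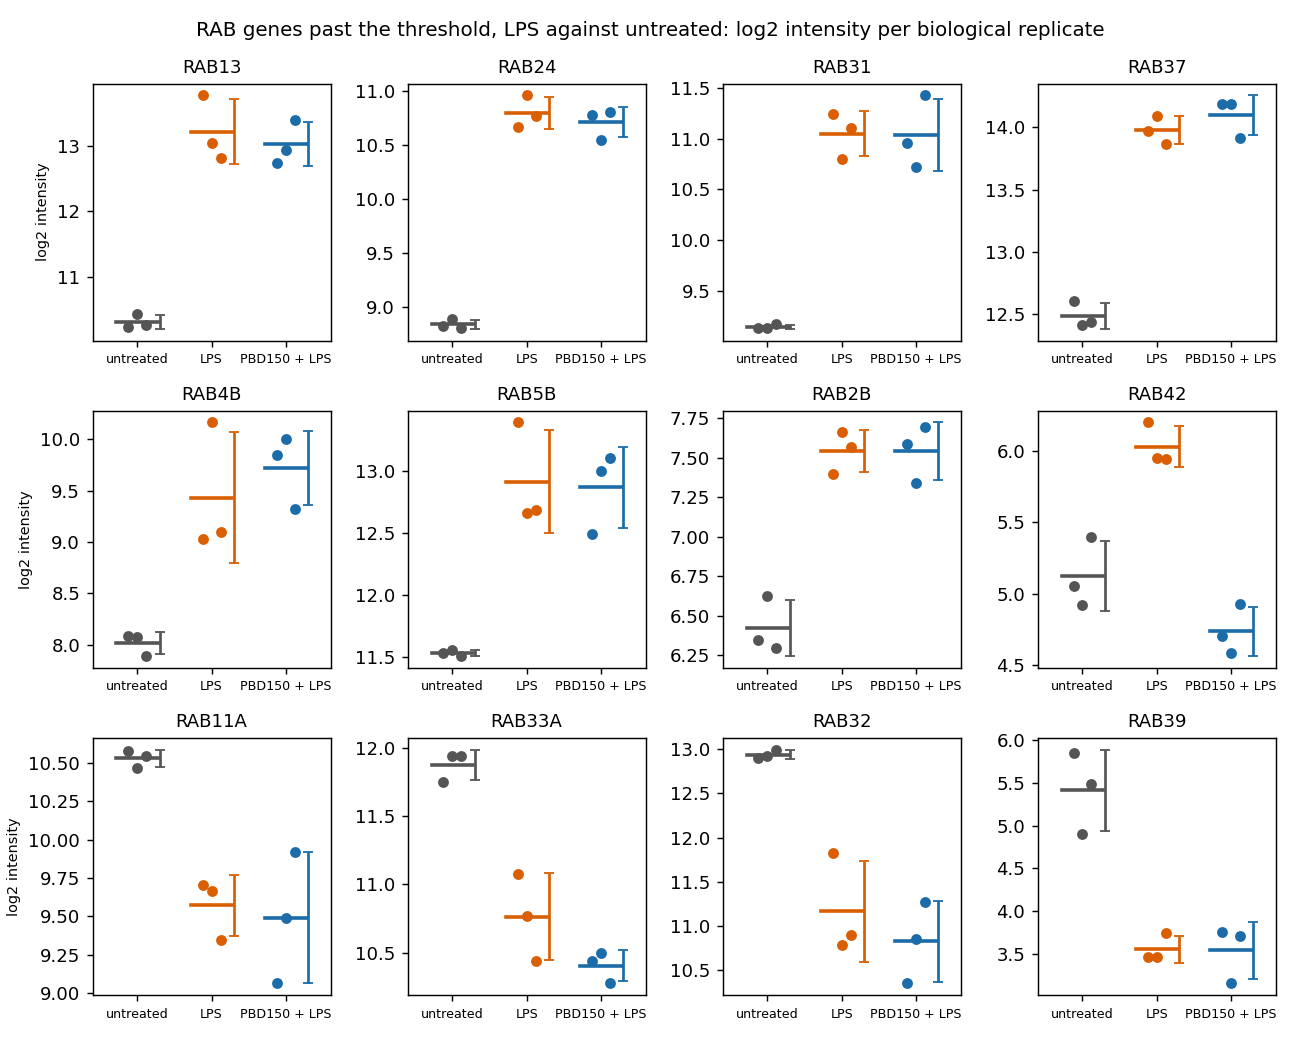
log2 intensity in each biological replicate (points) with the group mean (horizontal bar) and the standard deviation over 3 replicates (vertical bar), for the 12 genes past the threshold in LPS against untreated cells, 1 panel each with its own vertical range. In all 12 the LPS points lie clear of the untreated points, and in RAB42 the PBD150 plus LPS points lie below the LPS points.

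The proteins that load, extract, switch and read RABs are encoded by other genes, taken from lists of known regulators. With LPS 13.6% of all named genes were higher and 15.4% lower. Of 6 measured prenylation and extraction genes 1 rose and none fell, with a median difference of -0.00. That gene was RABAC1, which helps release RABs from their extraction factor, at 1.30 ± 0.40 (adjusted p = 0.0483). RABAC1 did not pass in 10 alternatives, which were the replicate block, median centring and the omission of untreated replicate 1, 2 or 3 (adjusted p = 0.11, 0.118 and 0.114), of LPS replicate 2 or 3 (0.146 and 0.15) or of PBD150 plus LPS replicate 1, 2 or 3 (0.0695, 0.0694 and 0.066). CHML, an escort protein for prenylation, gave -1.34 and did not pass (adjusted p = 0.056).

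Of 32 measured exchange factors 5 rose and 3 fell, with a median of 0.14. This list includes DENND5A. Its shares were 15.6% higher and 9.4% lower, against 13.6% and 15.4% of all named genes. VPS9D1, which carries the exchange domain of RAB5-type activators, rose by 2.00 ± 0.18 (adjusted p = 0.000175). HPS1, a subunit of the exchange complex for RAB32 and RAB38, rose by 1.21 ± 0.16 (adjusted p = 0.000912). ANKRD27, an exchange factor for RAB21 that also binds RAB32 and RAB38, gave -2.24 ± 0.41 (adjusted p = 0.00475). DENND2D, a DENN-domain exchange factor, gave -1.67 ± 0.30 (adjusted p = 0.00463). RAB32, its exchange subunit HPS1 and its binding partner ANKRD27 thus had differences of -1.77, 1.21 and -2.24.

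Of 34 measured GTPase-activating proteins 4 rose and 1 fell, with a median of 0.08. TBC1D8 rose by 2.72 ± 0.21 (adjusted p = 8.55e-05), TBC1D17 by 1.99 ± 0.20, TBC1D10A by 1.55 ± 0.19 and TBC1D25 by 0.93 ± 0.17, all encoding proteins with the TBC domain that switches RABs off. Of 35 measured effectors 10 rose and 3 fell, with a median of 0.26. SYTL3, a synaptotagmin-like effector of RAB27, rose by 3.10 ± 0.34 (adjusted p = 0.000402). RAB11FIP1, an effector of RAB11, rose by 1.97 ± 0.19 and RILP, which links RAB7 to the dynein motor, rose by 1.74 ± 0.22. RABEPK, an effector of RAB9, gave -1.95 ± 0.16 (adjusted p = 0.000101). For comparison, 13.6% of all named genes were higher and 15.4% lower.

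**Figure D3:**
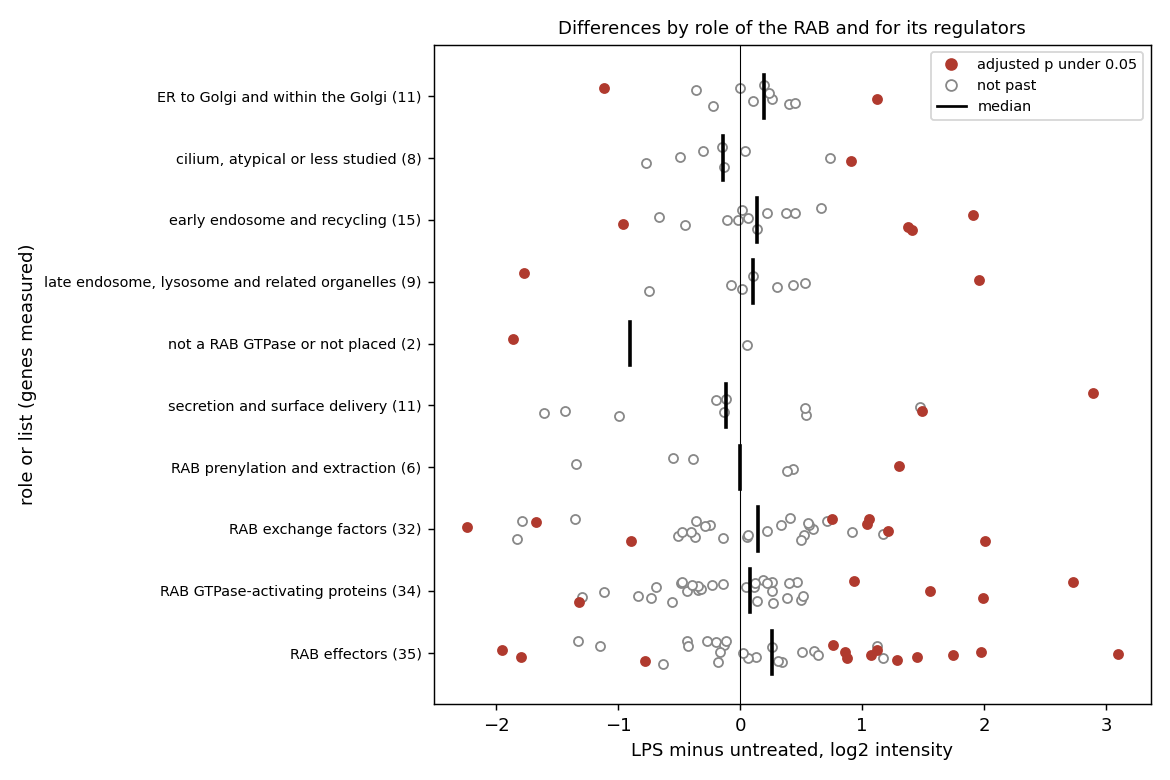
LPS minus untreated difference in log2 intensity for each gene, by role of the RAB and for the regulator lists, with the number of measured genes in brackets and the median as a bar. Filled points passed an adjusted p of 0.05, 10 on the right and 3 on the left among the 35 effectors.

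PBD150 plus LPS against LPS alone asked what the glutaminyl cyclase inhibitor changes in stimulated cells. No RAB gene was called: 0 of 56 passed in either direction, as did 0.00% of all named genes (limma, adjusted p under 0.05). At an unadjusted p under 0.05 RAB42 alone passed, 1 of 56 against 4.46% of all named genes, and it was also the 1 gene of 56 whose replicates did not overlap, against 7.74% of all named genes. The median RAB difference was -0.05, against -0.01 for all named genes. The 95% interval left out a 2-fold change in either direction for 35 of 56 genes (62.5%, against 56.03% of named genes) and a 4-fold change for 54 of 56 (96.4%, against 91.3%). A 2-fold difference therefore lay within the interval of the other 21 genes. The 7 other genes that rose with LPS gave differences between -0.19 and 0.29, and the 4 that fell gave -0.36 to -0.01. Both comparisons use the same LPS cultures.

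RAB42 read 6.20, 5.95 and 5.94 with LPS and 4.70, 4.58 and 4.92 with PBD150 plus LPS, against 5.06, 4.92 and 5.39 in untreated cells. All inhibitor-treated cultures were below all LPS cultures, and the PBD150 plus LPS values also lay below the untreated ones except that replicate 3, at 4.92, met the lowest of them. The difference from LPS was -1.29 ± 0.20 with a 95% interval of -1.75 to -0.84, an unadjusted p of 0.000148 and an adjusted p of 0.414. Across alternatives the RAB42 difference ran from -1.49 to -0.93 and the adjusted p from 0.148 to 0.756. Single arrays ran from 5.49 to 6.63 with LPS and from 4.15 to 5.41 with the inhibitor, and the gene was above noise on all 9 untreated, all 9 LPS and 8 of 9 PBD150 plus LPS arrays. RAB42 was picked here as the most extreme of 56 genes.

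The next 4 genes by size of the moderated statistic had adjusted p of 0.906. RAB39B, mostly known from neurons, read 4.65, 4.94 and 4.65 with LPS and 5.28, 6.22 and 4.84 with the inhibitor, a difference of 0.70 ± 0.33 that replicate 2 leads. RAB33A gave -0.36 ± 0.21. RAB11B read 6.75, 7.09 and 7.03 with LPS and 7.29, 7.44 and 7.08 with the inhibitor, a difference of 0.31 ± 0.19 with overlapping groups. RAB26, a RAB of secretory granules, read 3.43, 4.56 and 5.30 and then 4.79, 5.28 and 5.60, a difference of 0.79 ± 0.48, also overlapping. No gene of the 4 regulator lists was called in this comparison.

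**Figure D4:**
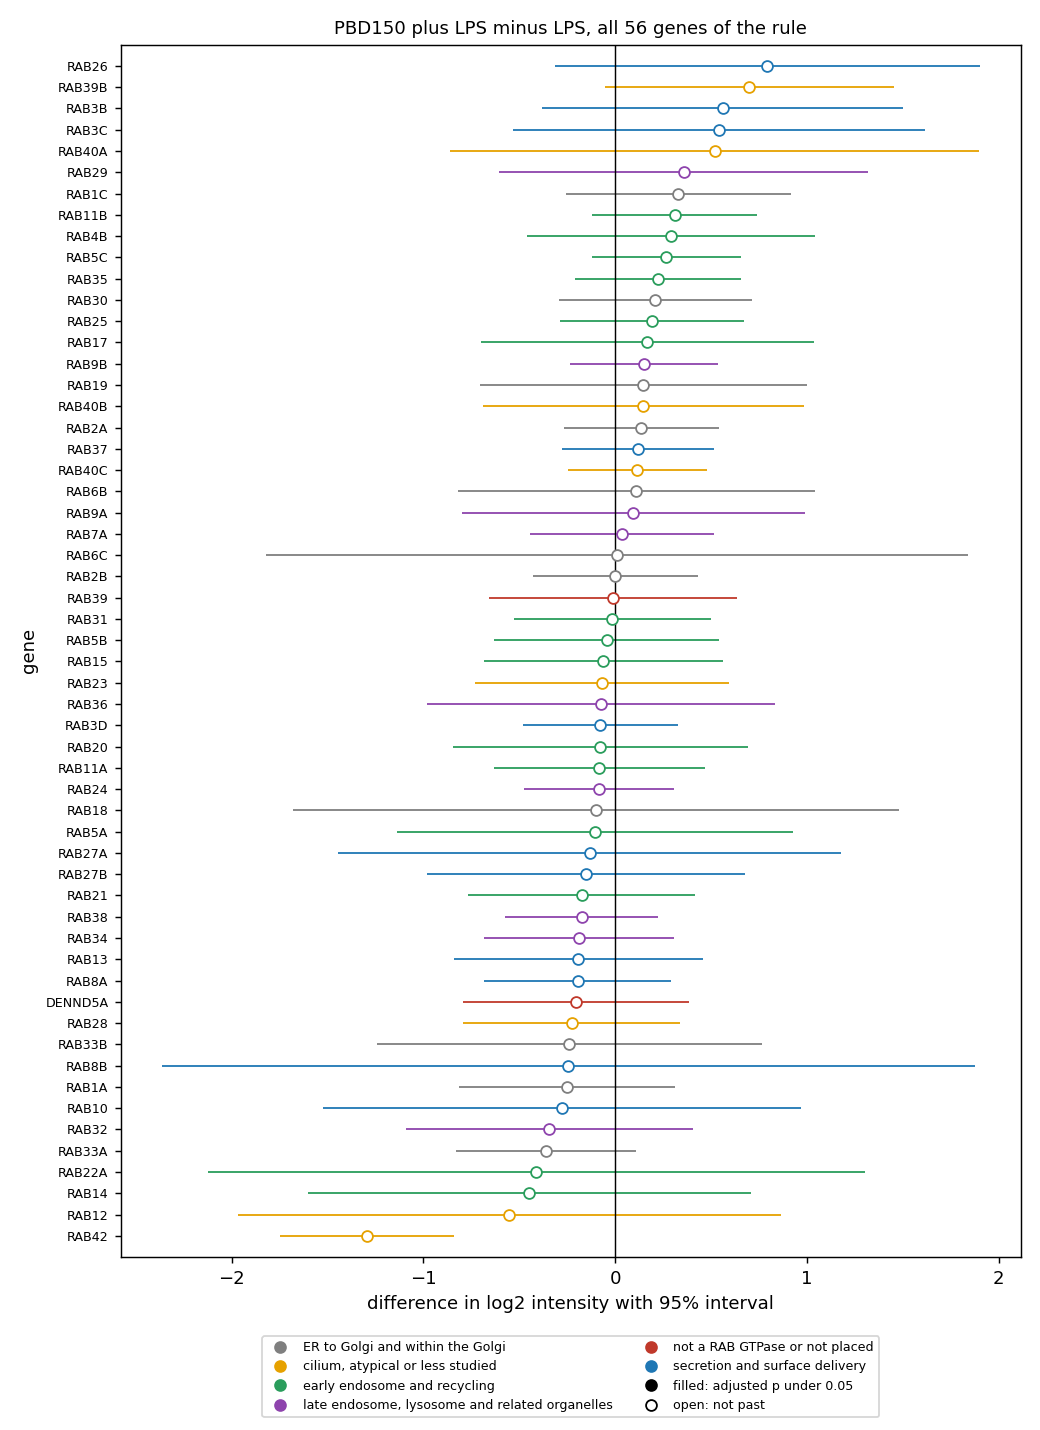
Difference in log2 intensity between PBD150 plus LPS and LPS alone for the 56 genes (points) with 95% intervals (lines), sorted by size and coloured by role. All points are open, since none passed an adjusted p of 0.05, and RAB42 at -1.29 is the lowest.

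Against untreated cells the PBD150 plus LPS cultures had 7 RAB genes higher, 7 lower and 42 not past, against 15.3% higher and 17.9% lower of all named genes (33.2% in either direction, and 26.0% of all probes). On values as deposited the split was 9 higher and 4 lower, when 2805 of all named genes were higher and 2053 lower. Replicates did not overlap for 25 of 56 genes (44.6%, against 53.9% of named genes), and the median was 0.16, against 0.06. This comparison shares its untreated cultures with the first. RAB13, RAB24, RAB31, RAB37, RAB4B, RAB5B and RAB2B were the 7 higher genes, with differences of 2.70, 1.87, 1.89, 1.62, 1.70, 1.33 and 1.12, beside 2.90, 1.96, 1.91, 1.49, 1.41, 1.38 and 1.12 with LPS alone. RAB39, RAB32, RAB33A and RAB11A were lower, at -1.87, -2.11, -1.47 and -1.04, beside -1.86, -1.77, -1.11 and -0.96. RAB42 was at -0.39 (adjusted p = 0.192), beside 0.91 with LPS alone.

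RAB10, RAB27B and RAB28 passed as lower against untreated cells with PBD150 plus LPS and did not pass with LPS alone, and none of them passed between the treated groups. RAB10 read 6.31, 6.67 and 6.71 in untreated cells, 5.92, 4.18 and 4.78 with LPS and 4.43, 3.87 and 5.75 with PBD150 plus LPS, with differences of -1.61 (adjusted p = 0.069) and -1.88 (0.0349). Its treated groups overlapped widely. RAB10 was above noise on 8 of 9 LPS and 6 of 9 PBD150 plus LPS arrays, so the size of its fall is uncertain. RAB27B, a granule-docking RAB, read 6.32, 5.36 and 6.07, then 5.63, 4.45 and 4.69, then 4.63, 5.05 and 4.63, with differences of -0.99 (adjusted p = 0.0871) and -1.14 (0.0489). RAB28, a ciliary RAB, read 9.76, 9.66 and 9.51, then 8.89, 9.07 and 8.67, then 8.17, 8.75 and 9.02, with differences of -0.77 (adjusted p = 0.0572) and -0.996 (0.0185). Which comparison these genes passed in depended on the processing in both directions. With LPS alone RAB10 passed in 6 alternatives, RAB28 in 6 and RAB27B in 4, including for each of them a pseudocount of 16, dim probes left out and array weights. Without LPS replicate 1 the LPS difference was -2.08 for RAB10 (adjusted p = 0.0254) and -1.34 for RAB27B (0.0189). Without PBD150 plus LPS replicate 3 the adjusted p was 0.0344 for RAB10 and 0.0368 for RAB28, and without its replicate 1 it was 0.0295 for RAB28. The calls with PBD150 plus LPS were lost in others. On values as deposited the adjusted p was 0.0724 for RAB10, 0.0788 for RAB27B and 0.0508 for RAB28, and RAB27B also missed the threshold with median centring (0.0609) and with array weights (0.0616). RAB10 lost its call without untreated replicate 1, 2 or 3, LPS replicate 3, or PBD150 plus LPS replicate 1 or 2, at adjusted p of 0.0505 to 0.113. RAB27B lost it without untreated replicate 1 or 3, LPS replicate 3, or PBD150 plus LPS replicate 1, 2 or 3, at 0.0633 to 0.148. RAB28 lost it without untreated replicate 1 or 2 or PBD150 plus LPS replicate 1, at 0.0505 to 0.0652.

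Regulators of RABs also differed between PBD150 plus LPS and untreated cells. In this comparison 9 of 32 exchange factors were higher and 5 lower, 5 of 34 GTPase-activating proteins higher and 4 lower, 10 of 35 effectors higher and 4 lower, and 1 of 6 prenylation or extraction genes higher and 1 lower. Of all named genes 15.3% were higher and 17.9% lower. The prenylation gene that was lower was CHML, at -2.39, and the one that was higher was RABAC1, at 1.98. SYTL3 was at 3.12 and TBC1D8 at 2.85, beside 3.10 and 2.72 with LPS alone.

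RAB levels spread more widely in the treated groups than in untreated cells, both between cultures and between arrays of one culture. In untreated cells their median standard deviation over 3 replicates was 0.128, against 0.153 for all named genes. It was 0.328 after LPS (0.348 for all named genes) and 0.335 after the inhibitor and LPS (0.333), a difference between groups that was not tested. The standard deviation exceeded 0.5 in both treated groups for 10 genes: RAB10, RAB14, RAB18, RAB22A, RAB27A, RAB33B, RAB5A, RAB6C, RAB29 and RAB8B. It exceeded 0.5 in untreated cells for 11 genes, including RAB12, RAB17 and RAB40A, which were above noise on no array. RAB6C and RAB8B were in both sets, so their standard deviation exceeded 0.5 in every group. Single untreated arrays ran from 0, the floor, to 4.96 in RAB6C and to 6.27 in RAB8B. The share of all named genes with a standard deviation over 0.5 was not counted. RAB14 was above noise on 5 of 9 untreated, 7 of 9 LPS and 4 of 9 PBD150 plus LPS arrays. Arrays of one replicate also differed. The median standard deviation of RAB genes between such arrays was 0.187 in untreated cells. It rose to 0.372 after LPS and to 0.364 after the inhibitor and LPS. How far this array spread accounts for the wider spread between treated cultures was not tested. With LPS the standard deviation between arrays was 1.19 in RAB22A, 0.94 in RAB18 and 0.22 in RAB33B. Between replicates it was 1.37, 1.12 and 0.90. RAB22A and RAB18 were each above noise on all 9 untreated, 7 of 9 LPS and 8 of 9 PBD150 plus LPS arrays. RAB33B was above noise on all 9 arrays of each group. How far values near the noise limit add to these spreads was not tested. RAB22A, a RAB of early and recycling endosomes, read 6.12, 6.75 and 6.49 in untreated cells, 7.32, 5.36 and 4.67 with LPS, and 3.98, 6.03 and 6.11 with PBD150 plus LPS. RAB18, found on lipid droplets and the endoplasmic reticulum, read 5.496, 5.31 and 5.13, then 6.66, 4.51 and 5.08, then 4.22, 5.02 and 6.71. RAB5A read 6.92, 7.02 and 7.02, then 7.87, 6.37 and 6.38, then 6.11, 6.83 and 7.38. In all 3 genes LPS replicate 1 was the highest LPS culture, PBD150 plus LPS replicate 3 the highest and replicate 1 the lowest of its group. LPS replicate 1 was the highest of its group for 28 of 56 RAB genes, against 39.8% of all named genes, and PBD150 plus LPS replicate 3 for 28 of 56, against 40.8%.

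**Figure D5:**
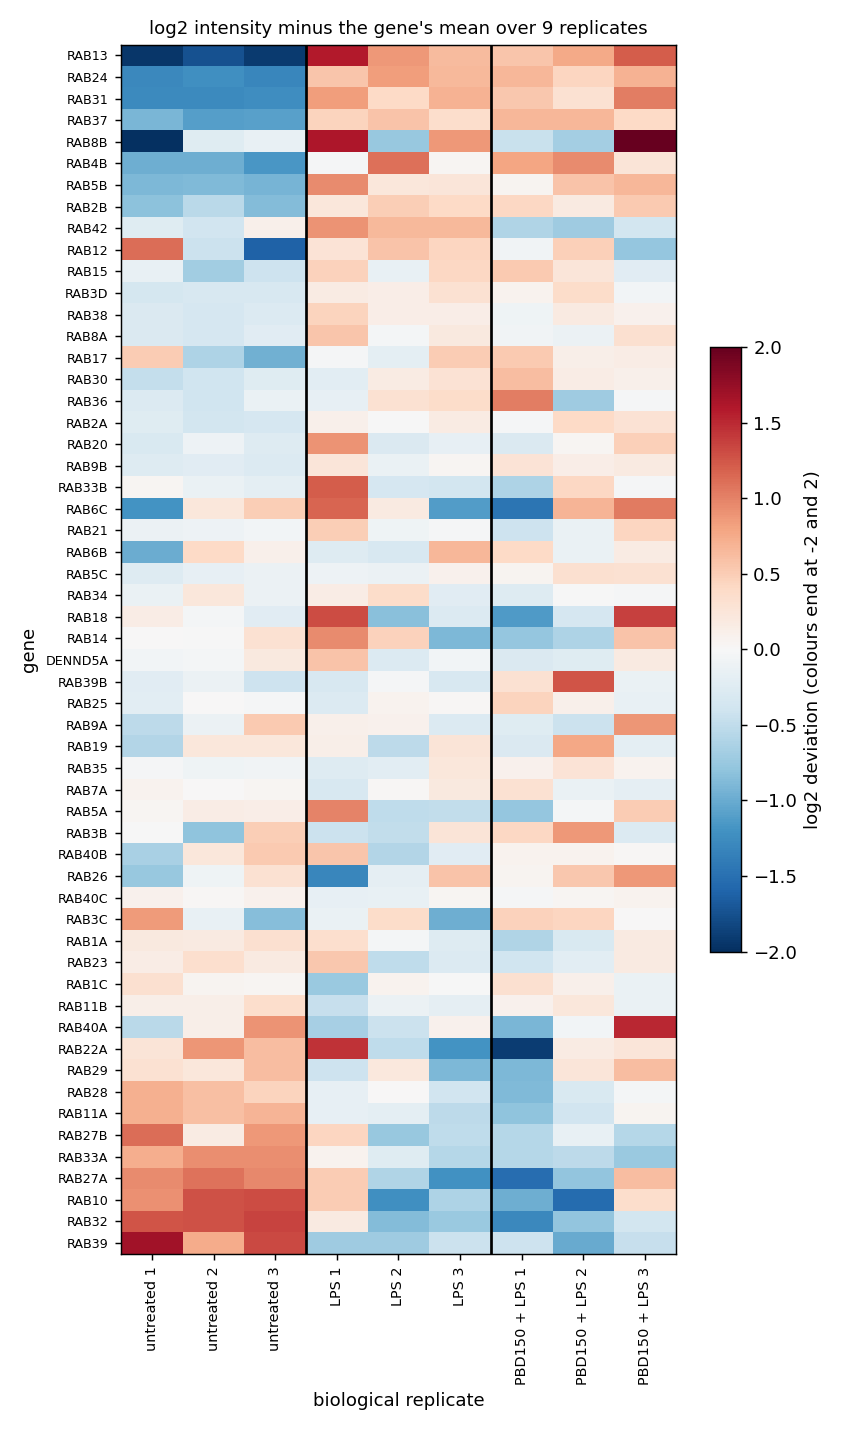
log2 intensity of each of the 56 genes in the 9 biological replicates, as the deviation from the gene's own mean, sorted by the LPS minus untreated difference, with colours ending at -2 and 2. The top and bottom genes separate untreated from treated cultures, and LPS replicate 1 and PBD150 plus LPS replicate 3 are the reddest of their groups for many genes in between.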

How the data were processed

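RNA from U937 cells (2.5 µg per array, per the labels) was read on 27 one-colour Phalanx Human OneArray arrays. The authors deposited linear spot intensity values. How they were scanned, background-corrected and scaled is not given in the sources consulted, and some deposited values lie below 0. Intensities were floored at 1, log2 transformed, quantile normalised over 27 arrays and averaged over the 3 arrays of a biological replicate. A model with 1 mean per group was fitted to the 9 replicates in limma 3.58.1 (R 4.3.3), and two-sided moderated p-values were adjusted by Benjamini-Hochberg over all 30968 probes, with a threshold of 0.05. The number of biological replicates, 3 per group, limits the precision. Gene symbols are those of the platform annotation, brought up to date with RefSeq (GRCh38.p14), and a gene was read from its brightest probe. Of 30968 probes 17397 had 1 symbol.

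The members and lists were chosen with earlier results of these data known. Named with all replicate values were up to 8 genes per direction with the smallest adjusted p for LPS, the 5 largest statistics where fewer than 5 passed, and genes passing only with PBD150 plus LPS. Other genes were named to illustrate a role or a wide spread, after their values were seen. Same-numbered samples were checked for pairing and were not paired. Alternatives covered scaling, pseudocount, dim probes, arrays as a random block, array weights, a replicate block, probe choice, and each replicate left out.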

Additional observations from a re-analysis of the deposited data

How the results depend on the processing

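No RAB gene reversed a call under any alternative, and the count of 0 for PBD150 plus LPS against LPS held throughout. For LPS against untreated, the 4 lower RAB genes became 2 as deposited, 8 with a pseudocount of 16, 7 without dim probes, 7 with 27 arrays in a random block and 9 with array weights, and the median of 0.06 became 0.42 as deposited. Among all named genes 2343 were lower in the main fit. In the same order that count became 1435, 2810, 2628 (of 11412 genes), 3165 and 3467. The median of all named genes went from 0.05 to 0.38 as deposited. Leaving out single replicates gave 3 to 7 lower RAB genes (7 without LPS replicate 1) and 7 to 9 higher, when 1580 to 2687 of all named genes were lower (2687 without LPS replicate 1) and 1475 to 2268 higher. For PBD150 plus LPS against untreated, the 7 lower RAB genes became 4 as deposited, and the 7 higher became 11 without dim probes, 13 with 27 arrays and 13 with array weights. Among all named genes the 2721 lower became 2053 as deposited. The 2326 higher became 2792 (of 11412 genes), 3360 and 3467 in the same order. Leaving out replicates gave 4 to 7 lower (4 without untreated replicate 1 and without PBD150 plus LPS replicate 1) and 7 to 10 higher. Of all named genes 1984 to 3109 were then lower and 1637 to 2745 higher. The cause was not tested.

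With a replicate block the counts were 8 higher and 3 lower (without RAB11A), 0 and 0, and 7 higher and 6 lower (without RAB27B). For all named genes they were 1630 higher and 1844 lower, 0 and 0, and 1801 higher and 2253 lower. RABAC1 also missed the threshold with the block for LPS against untreated (adjusted p = 0.068). Deviations of same-numbered samples correlated at -0.219, -0.006 and -0.16 between the treated groups, so the numbers were not taken to pair the samples. The array's noise limits genes such as RAB39, and RAB2A, RAB18 and RAB40B have probes that disagree in sign.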
